A study of Rattus norvegicus with 140 samples.

Results

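At the end of heating, some transcripts had changed at least 2-fold in the heart and less than 1.5-fold in the kidney of the same rats, some the other way round, and a few had moved in opposite directions. The deubiquitinase Otud1 rose 19.3-fold in the heart, the lactate carrier Slc16a1 rose 4.82-fold in the kidney, and the hormone stanniocalcin, Stc1, rose in the heart and fell in the kidney. The comparison described here set the heart response at TcMax, the time of maximum core temperature, against the kidney response at TcMax. It used 22 of the 140 arrays of the series, a heart array and a kidney array from each of 11 rats, with the organs of a rat matched by its animal number. All rats were male Fischer 344 rats of 2 to 3 months that carried a telemetry transmitter. The 5 heated rats were warmed in an incubator at 37 °C and killed when core temperature reached 41.8 °C. The 6 control rats stayed at 22 °C, never entered the incubator and were killed at the matching time. A further heated rat had a kidney array only, so it entered none of the paired fits, and its kidney values are given beside the kidney results. The other arrays of the series hold the liver and the lung, and rats killed 24 or 48 h after heating.

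A cell that is overheated unfolds part of its protein, and heat shock factors then switch on chaperones that hold and refold it. Another set consists of immediate early genes, such as the AP-1 transcription factors Fos and Fosb, which respond within minutes to kinase signalling, stretch, calcium or hormones. The heart at high core temperature works against a high circulatory demand, while the kidney loses blood flow as blood is sent to the skin and must keep filtering, reabsorbing and handling organic ions.

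Each transcript cluster ID of the array, a probe set for 1 transcript, had an intensity in each organ, and the response of an organ was the mean log2(intensity + 16) of heated rats minus that of controls. The intensities were normalized in each organ apart, so responses were compared between the organs and levels were not. The difference in response was the heart response minus the kidney response, fitted with limma on each rat's own heart minus kidney value and given as log2 ± standard error (5 heated and 6 control rats). Calls needed an adjusted p below 0.05, by the method of Benjamini and Hochberg over all IDs tested, together with a 2-fold or larger difference. Of 19437 IDs tested, 49 (0.252%) were called with the larger response in the heart and 40 (0.206%) with the larger response in the kidney, together 89 (0.458%) of which 76 carried a single gene symbol, for 70 genes. With no fold minimum the calls came to 118 (0.607%). In 84 of the 89, each of the 5 heated rats lay beyond each of the 6 controls, against 2.11% of all IDs tested. The test chose the 89 on these same values, so the count describes them and is no further support. Within an organ, the heated and control arrays did not overlap for 4.16% of IDs in the heart and 8.01% in the kidney. Taken alone, the heart had 235 IDs up (1.21%) and 55 down (0.283%), and the kidney 230 up (1.18%) and 50 down (0.257%). An ID was placed in the class of 1 organ only when that organ passed its own test at 2-fold and the other organ changed by less than 1.5-fold.

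**Figure D1:**
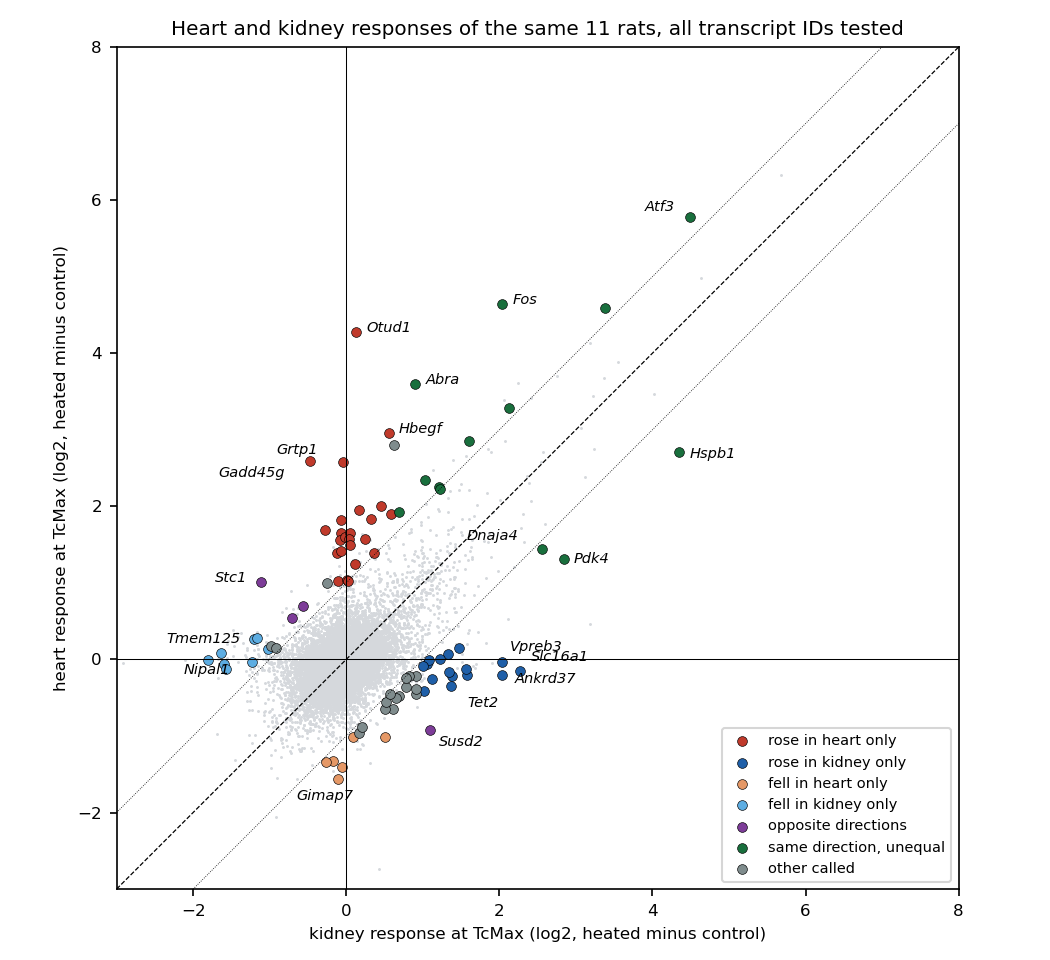
Response of each of 19437 transcript IDs in the kidney (horizontal axis) and the heart (vertical axis) at TcMax, in log2 units of heated minus control, with the 89 called IDs coloured by class; the dashed line marks equal responses and the dotted lines a 2-fold difference. The red points above 0 on the vertical axis include Otud1 at 4.27 in the heart and 0.13 in the kidney, and the dark blue points include Slc16a1 at 2.27 in the kidney and -0.15 in the heart.

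The arrays carried the markers of their organs. The mean log2 level of 8 cardiomyocyte markers was 11.68 to 12.52 in hearts and 5.20 to 5.44 in kidneys. Markers of other cells stood higher on some arrays. Proximal tubule markers (4 genes) stood at 5.80 in the heart of control rat 2 and at 6.53 and 6.33 in the hearts of heated rats 1 and 2, against 4.62 to 5.09 in the other hearts. Adipocyte markers (4 genes) stood at 9.58 and 9.83 in the hearts of control rats 1 and 3 and at 8.82 in the kidney of heated rat 1, and smooth muscle markers (3 genes) at 10.75 in the heart of heated rat 5. The collecting duct markers (4 genes) were lower in each heated kidney, at 8.86 to 9.20, than in each control kidney, at 9.27 to 10.12, while the proximal tubule markers were 11.37 to 11.73 in heated and 10.25 to 11.40 in control kidneys. Here and below, fewer cells of a type and less RNA per cell cannot be told apart. Leaving out the 3 rats with tubule markers in the heart left 18 of the 36 leading genes called, and leaving out the 3 rats with adipocyte or smooth muscle markers in the heart left 23 of 36, with heated rat 1 kept. Their differences in response stayed at 0.795 to 1.26 times those of all rats. Without the rats with tubule markers, the rises that lost their call were Ier5, Xirp1, Slc10a2, Rin2, Atf3, Mdh1b, Hspb1, Dnaja4 and Pdk4. The others that lost it were Pdp2, Dipk2b, Nxpe1, Apol11a, Hoxb5, Vamp1, Mat2a, Nuak2 and Susd2. The part of these cells in the results was not tested beyond that.

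The class that rose in the heart only held 24 IDs, 21 of them named, for 17 genes. In the kidney, 10 of the 24 lay below the kidney's median intensity of 50.2 on each of the 11 kidney arrays, a range in which the added 16 shrinks a change. Otud1, a deubiquitinase of the ovarian tumour family, led all IDs. Its heart intensity was 3268, 2551, 2641, 1832 and 1403 in heated rats 1 to 5, while the 6 control hearts ran from 84.7 through a median of 100.4 to 120. In the kidneys of the same heated rats it was 70.5, 79.97, 88.0, 74.9 and 83.1, and in control kidneys at most 94.1 with a median of 68.9. Heated and control hearts were thus far apart, and the kidneys overlapped. The heart rose 19.3-fold, the kidney response was 0.13 ± 0.11 on the log2 scale (95% interval -0.10 to 0.36), and the difference was 4.15 ± 0.22 (adjusted p = 1.77e-07).

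Gadd45g encodes a stress sensor that acts, in human cells, on the kinase MTK1 upstream of p38 and JNK. Its heart intensity was 935, 524, 784, 601 and 788 in the heated rats against 59.3 to 187 in controls (median 104), with no overlap. In the kidney it was 142, 110, 77.2, 55.3 and 114 against 102 to 169 (median 147), where the groups overlapped. The heart rose 6.06-fold, and the kidney response was -0.47 ± 0.19 (adjusted p = 0.155 in the kidney alone). The difference was 3.07 ± 0.25 (adjusted p = 1.85e-05).

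Hbegf, a ligand of the epidermal growth factor receptor that is cut from the cell surface, read 262, 304, 560, 306 and 400 in heated hearts against 26.1 to 42.1 in control hearts (median 29.4). The kidneys read 54.0, 56.4, 33.4, 38.9 and 25.0 in heated rats and 14.6 to 28.6 in controls (median 23.6), so that 4 of 5 heated kidneys stood above the controls. The heart rose 7.80-fold and the kidney 1.47-fold (adjusted p = 0.0363 in the kidney), which places Hbegf in this class by the 1.5-fold limit. Most of its kidney values lay below the kidney's median intensity of 50.2, where the added 16 shrinks a change. The difference was 2.41 ± 0.27 (adjusted p = 0.000389).

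Grtp1, a TBC-domain protein of the kind that acts on Rab GTPases, had 4 probe sets in the class. The leading probe set read 461, 293, 234, 136 and 179 in heated hearts and 9.93 to 44.6 in control hearts (median 30.0). Heated kidneys read 26.1, 20.97, 26.9, 21.7 and 25.9, control kidneys 21.1 to 34.0 (median 23.8), all of them dim. The heart rose 5.97-fold, and the difference was 2.62 ± 0.28 (adjusted p = 0.000267), with 1.88, 1.73 and 1.61 for the other probe sets. These 4 probe sets share a gene and were not counted as independent.

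**Figure D2:**
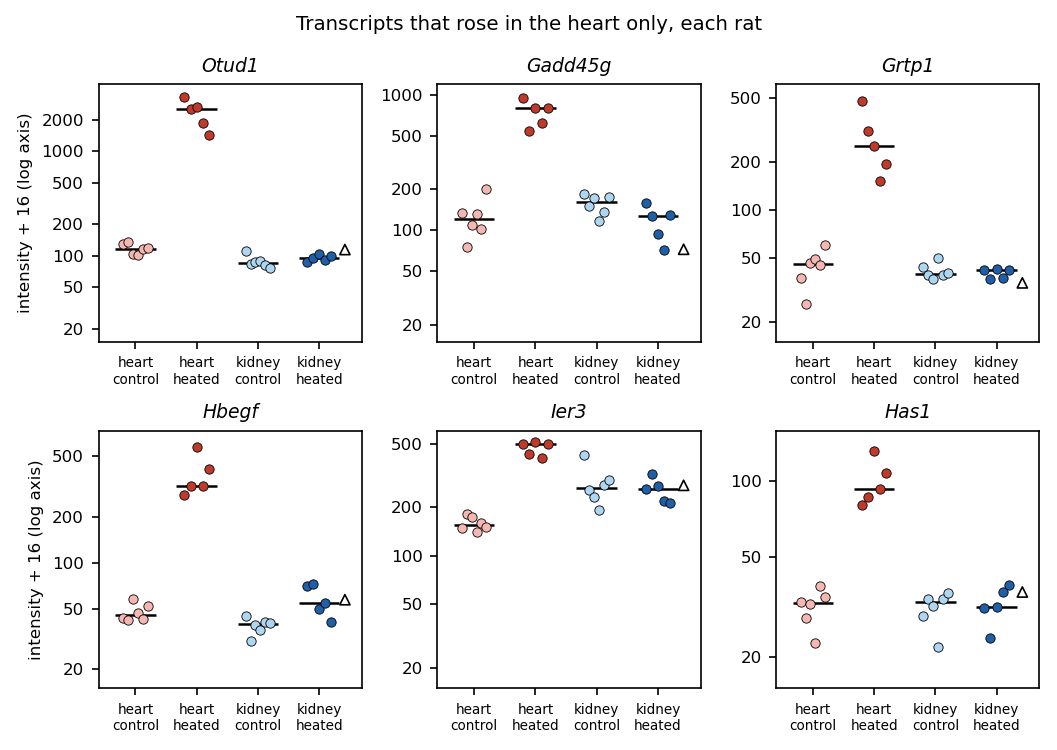
Intensity + 16 on a log axis in each heart (red) and kidney (blue) of 6 control and 5 heated rats for 6 genes that rose in the heart only; bars are medians and the open triangle is the heated rat with a kidney array only. For Otud1 the heated hearts read 1403 to 3268 and the control hearts at most 120, before the added 16, while the kidneys overlap.

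Immediate early genes made up part of this class. Ier3 rose 2.95-fold in the heart with a kidney response of -0.09 ± 0.18 (difference 1.65 ± 0.22, adjusted p = 0.00197). Ier5 rose 4.0-fold in the heart with 0.46 ± 0.15 in the kidney (difference 1.55 ± 0.23, adjusted p = 0.00476). Fosb, an AP-1 subunit that is near silent at rest, read 184, 64.1, 136, 24.0 and 87.8 in heated hearts against 6.94 to 15.04 in control hearts (median 9.34), and stayed at or under 17.0 in all 11 kidneys. Heated rat 4 had the lowest heart value. Its difference of 1.80 ± 0.34 (adjusted p = 0.0265) lost the call when any of 5 rats was left out, and the 2 groups of rats overlapped on the heart minus kidney scale. Jdp2, an AP-1 family repressor, had a difference of 1.03 ± 0.20 (adjusted p = 0.0288) and lost its call in 6 of the 11 fits that each left out a rat.

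Muscle genes formed another part. Xirp1, an actin-binding protein of the intercalated disc that joins heart cells, read 1161, 654, 1282, 566 and 558 in heated hearts against 219 to 284 in control hearts (median 263), and the kidney stayed at 20.99 to 39.4 in all 11 rats. The difference was 1.53 ± 0.23 (adjusted p = 0.00458), and its second probe set was called too (adjusted p = 0.0111). Lmod2, which lengthens actin thin filaments, read 4041, 2940, 2905, 2663 and 2696 against 1217 to 1709 (median 1471) in the heart. Its difference was 1.03 ± 0.17 (adjusted p = 0.00829). Both were dim in all 11 kidneys. Has1, a hyaluronan synthase, read 64.2, 70.5, 116, 77.7 and 92.2 in heated hearts and 6.72 to 22.4 in control hearts (median 16.8), a 3.15-fold rise, with a difference of 1.60 ± 0.18 (adjusted p = 0.000368). The other 6 named genes of the class, Cdr2, Nle1, Klhl34, Fabp9, Irs2 and Plaur, had differences from 1.13 to 1.51. Irs2 is the adaptor of the insulin receptor and Plaur the urokinase receptor. Plaur lost its call in 7 and Fabp9 in 3 of the 11 fits that each left out a rat.

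Beside these, 10 IDs rose in both organs but further in the heart, and 3 rose in both but further in the kidney. Abra, an actin-binding protein of striated muscle, read 1034, 898, 835, 646 and 665 in heated hearts against 29.5 to 83.5 in controls (median 52.7). Heated kidneys read 26.9, 44.0, 29.3, 55.3 and 53.8 against 9.06 to 22.7 (median 14.2), so each organ separated the groups. The rises were 12.1-fold and 1.86-fold, and the difference was 2.69 ± 0.30 (adjusted p = 0.000389). Fos, the founding AP-1 subunit, read 1105, 644, 1049, 248 and 768 in heated hearts against 2.15 to 23.3 in controls (median 12.7), and 299, 153, 134, 81.1 and 85.3 in heated kidneys against 6.61 to 30.7 (median 23.4). The difference was 2.60 ± 0.30 (adjusted p = 0.00057). Atf3, a stress-induced ATF/CREB factor, rose 54.8-fold in the heart and 22.5-fold in the kidney (difference 1.28 ± 0.23, adjusted p = 0.0165), and Dnajb1, a cochaperone of HSP70, 24.1-fold and 10.4-fold (1.21 ± 0.19, adjusted p = 0.00491). Mdh1b, Nr4a2, Rnd1 and C11h3orf38 completed the named genes, with differences of up to 1.32. Mdh1b kept its call in all 11 fits that each left out a rat. Nr4a2 lost its call in 9 of them, Rnd1 in 6, and the probe sets of C11h3orf38 in 9 and 8.

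The chaperones did not all favour the heart. Hspb1, a small heat shock protein that muscle keeps at a high level, read 5312, 4382, 4354, 4435 and 4850 in heated hearts against 619 to 778 in controls (median 704). In the kidney it read 2561, 2371, 1998, 2207 and 1685 against 41.2 to 197 (median 85.5). The groups were far apart in each organ, with a 6.54-fold rise in the heart and a 20.4-fold rise in the kidney (difference -1.64 ± 0.25, adjusted p = 0.00527). Without the 3 rats with tubule markers in the heart, the Hspb1 difference was -1.50 and not called (adjusted p = 0.143). Dnaja4, another J-domain cochaperone, rose 2.73-fold in the heart and 5.87-fold in the kidney (-1.10 ± 0.16, adjusted p = 0.00458). Without the same 3 rats this difference was -1.08 and not called (adjusted p = 0.109). The study reports Dnaja4 by another probe set, also with the larger rise in the kidney. That probe set was not among the called IDs. Of 32 cytosolic heat shock proteins and cochaperones tested, 15 were called up in the heart and 19 in the kidney, against 1.21% and 1.18% of all IDs. Dnajb1, Hspb1 and Dnaja4 were the 3 whose difference was called, against 0.458% of all IDs. The median difference over the list was 0.02, against 0.01 over all IDs.

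The class that rose in the kidney only had 16 IDs and 15 named genes, and 4 of the 16 lay below the heart's median intensity of 45.6 on all heart arrays. Transporters and metabolic genes were among them. Slc16a1 encodes MCT1, which carries lactate, pyruvate and ketone bodies across the plasma membrane. In heated kidneys it read 475, 700, 496, 732 and 396, and in control kidneys 67.4 to 264 (median 84.1), the 264 being control rat 6. Heated hearts read 1694, 1552, 1414, 1459 and 948 against 1302 to 1977 in controls (median 1501), so the heart groups overlapped at a high level. The kidney rose 4.82-fold, the heart response was -0.15 ± 0.17 (95% interval -0.51 to 0.20), and the difference was -2.42 ± 0.24 (adjusted p = 0.000145).

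Ankrd37, an ankyrin-repeat protein known as a target of hypoxia-inducible factor in human cells, read 246, 251, 255, 402 and 404 in heated kidneys against 46.2 to 85.5 in controls (median 61.3). Heated hearts read 32.0, 22.8, 34.6, 23.8 and 30.6 and control hearts 25.3 to 49.3 (median 34.8). The kidney rose 4.11-fold while the heart groups overlapped, and the difference was -2.24 ± 0.21 (adjusted p = 0.000102). It was the 1 called gene of 23 tested in the hypoxia and glycolysis list, whose median difference was -0.08.

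The promoters of Slc16a1 and Ankrd37 are shown because they lead the kidney class and both hold the letters ACGTG, the core that hypoxia-inducible factor binds, on either strand. They are RefSeq sequences of build GRCr8, 250 bases before to 50 bases after the annotated start, with the matches in capitals. Slc16a1 (chr2:194812410-194812709, plus strand) holds them in 2 separate places and Ankrd37 (chr16:53001257-53001556, plus strand) in 3.
Slc16a1: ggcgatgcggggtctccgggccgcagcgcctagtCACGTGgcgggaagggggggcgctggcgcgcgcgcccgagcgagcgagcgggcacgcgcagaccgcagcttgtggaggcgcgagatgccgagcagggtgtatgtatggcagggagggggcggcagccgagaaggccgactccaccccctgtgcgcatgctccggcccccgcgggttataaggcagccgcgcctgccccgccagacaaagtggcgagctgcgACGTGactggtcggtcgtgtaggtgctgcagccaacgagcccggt
Ankrd37: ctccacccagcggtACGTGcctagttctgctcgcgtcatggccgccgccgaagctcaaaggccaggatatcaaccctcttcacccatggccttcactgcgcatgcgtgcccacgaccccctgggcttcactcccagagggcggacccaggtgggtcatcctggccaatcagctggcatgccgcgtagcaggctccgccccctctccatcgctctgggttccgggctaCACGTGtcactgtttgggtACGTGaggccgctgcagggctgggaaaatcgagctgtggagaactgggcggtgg
A match is a run of letters and not a shown binding site. Promoters were lacking for Otud1, Fos, Fosb, Atf3, Abra, Xirp1, Ier3, Irs2, Fabp9 and Rnd1, which had the larger rise in the heart. Grb7, with the larger rise in the kidney, lacked one too. These genes were therefore not searched for any motif. The heat shock element was searched as a single strict pattern, so finding none does not show that a promoter lacks such an element. ACGTG was found in 5 of 17 promoters of genes with the larger rise in the kidney, in 4 of 15 of those with the larger rise in the heart, and in 19.7% of 27457 rat promoters of the same length, and 54 of the 70 called genes had a promoter in the table. The letters TGACG, the core of the cAMP response element that CREB and ATF factors bind, were in 7 of 15 promoters on the heart side and 4 of 17 on the kidney side, against 22.0% of all. Of the other motifs searched on both strands, the AP-1 site TGANTCA was in 1 of 15 on the heart side and 2 of 17 on the kidney side (7.33% of all), and the heat shock element (0.736% of all) and the CArG box (1.64% of all) were in none of either side. The full palindrome TGACGTCA, which contains TGACG, was found in Has1 and in no other of the 15 promoters on the heart side, and in 1.91% of all promoters, again on either strand. Its promoter (chr1:67378395-67378694, minus strand) is shown for comparison, with the palindrome in capitals.
Has1: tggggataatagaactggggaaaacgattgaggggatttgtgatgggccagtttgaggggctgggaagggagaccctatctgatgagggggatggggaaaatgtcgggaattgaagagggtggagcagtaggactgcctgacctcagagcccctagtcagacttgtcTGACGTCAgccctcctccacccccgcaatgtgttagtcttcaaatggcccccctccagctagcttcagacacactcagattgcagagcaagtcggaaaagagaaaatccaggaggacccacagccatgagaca

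Vpreb3, which assists the pre-B cell receptor in B cells, read 84.0, 106, 135, 157 and 116 in heated kidneys against 9.34 to 22.5 in control kidneys (median 17.1). The heart overlapped, with 41.7, 21.3, 33.8, 25.2 and 25.6 against 19.3 to 50.5 (median 28.1). The kidney rose 4.08-fold and the difference was -2.06 ± 0.25 (adjusted p = 0.000796). The T and B lymphocyte markers that were tested (3 genes) had a median kidney response of -0.14 with none called.

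Slc47a2 encodes a proton antiporter of organic cations. It read 67.3, 40.1, 94.9, 135 and 109 in heated kidneys against 13.5 to 23.5 in controls (median 16.5), and was dim in all hearts (difference -1.77 ± 0.27, adjusted p = 0.00489). Slc10a2, the sodium-dependent bile acid carrier of ileum and proximal tubule, read 278, 274, 190, 192 and 150 against 52.3 to 95.3 (median 73.6) in the kidney (difference -1.60 ± 0.24, adjusted p = 0.00458). The control kidneys lay below the kidney's median intensity of 50.2 for Slc47a2. The proximal tubule markers had a median kidney response of 0.54 over 4 genes, none of them called. The part of the tubule markers in these rises was not tested.

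Tet2, which oxidises methylcytosine in DNA, rose from 256 to 339 (median 296) in control kidneys to 764, 654, 981, 859 and 751 in heated kidneys, a 2.58-fold rise. In the heart it read 455, 285, 294, 305 and 325 in heated rats and 297 to 519 (median 458) in controls, with overlap. The difference was -1.72 ± 0.19 (adjusted p = 0.000368). Polg2, the accessory subunit of the mitochondrial DNA polymerase, read 318, 329, 338, 392 and 327 in heated kidneys against 104 to 123 in control kidneys (median 112), with a difference of -1.32 ± 0.20 (adjusted p = 0.00476). Rin2, which activates the endosomal GTPase Rab5, rose 2.03-fold in the kidney and had a heart response of -0.41 ± 0.13 (difference -1.43 ± 0.20, adjusted p = 0.00287). Dusp6, the cytoplasmic phosphatase of ERK, rose 2.34-fold in the kidney with 0.01 ± 0.17 in the heart (difference -1.21 ± 0.23, adjusted p = 0.0279), although 6 of the 11 fits that each left out a rat lost its call. The remaining 6 genes, Apcs, Tsku, Zfp354a, Yod1, Maf and Grb7, had differences of -1.09 to -1.5, and of these the call of Yod1, like Otud1 an ovarian tumour family deubiquitinase, held in all 11 such fits.

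**Figure D3:**
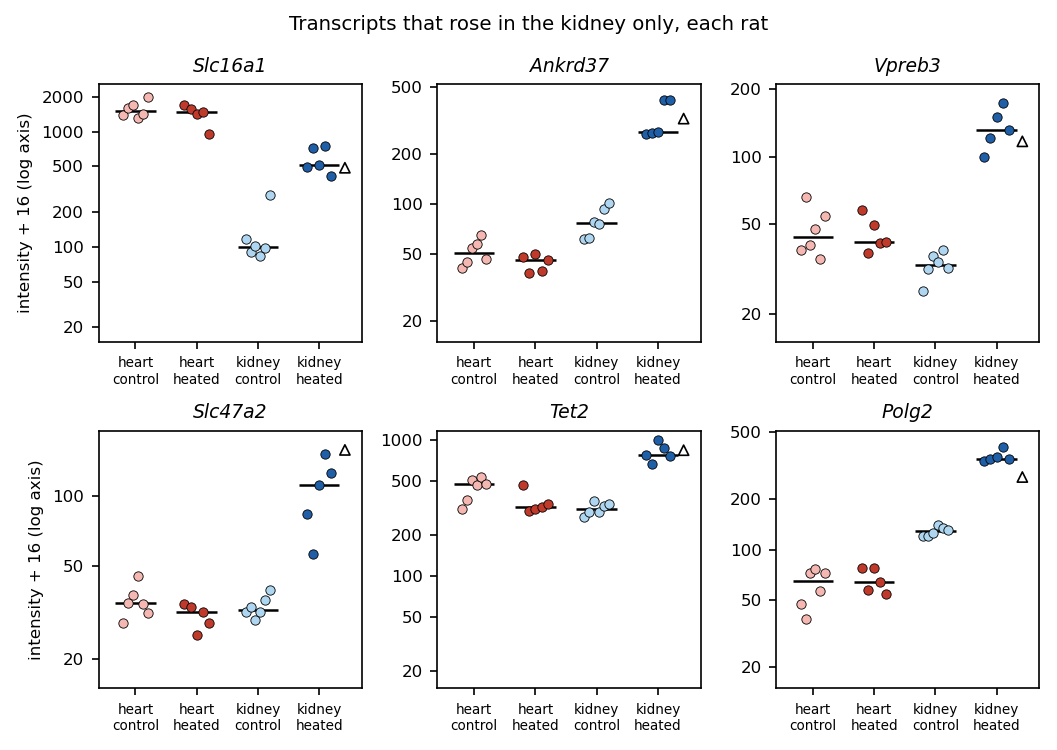
Intensity + 16 on a log axis in each heart (red) and kidney (blue) of 6 control and 5 heated rats for 6 genes that rose in the kidney only; bars are medians and the open triangle is the heated rat with a kidney array only. In each panel the 5 heated kidneys and the triangle lie above the 6 control kidneys, for Polg2 at 253 to 392 against at most 123 before the added 16.

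The heated rat with a kidney array only gave values that the paired fits had not used, although it is set here against the same 6 control kidneys that chose the classes. These counts are therefore a description and no independent support, and the shares of all IDs beside them are not what unchanged IDs chosen on those controls would give. In its kidney, 14 of the 16 IDs of this class stood above all 6 control kidneys, against 13.3% of all IDs. Slc16a1 read 471, Ankrd37 309, Vpreb3 101, Slc47a2 141, Tet2 829 and Polg2 253 in that rat. Apcs and Tsku, at 252 and 178, lay within the control range. Of the 8 IDs that fell in the kidney only, 6 stood below all controls in that rat, against 23.9% of all IDs, and the other 2 were Hoxb5 and Slc31a2.

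Fewer transcripts fell in 1 organ. In the heart only, 6 IDs fell. A fall in the kidney could hardly be seen for 5 of them, because they were dim in all kidneys. The exception was Pdp2, the phosphatase that switches the pyruvate dehydrogenase complex back on. It read 319, 227, 291, 255 and 195 in heated hearts against 404 to 723 in control hearts (median 531). In the kidney it read 881, 888, 790, 1060.35 and 939.7 against 412 to 847 (median 651). The heart fell 2.02-fold without overlap, the kidney response was 0.51 ± 0.15 (adjusted p = 0.0511), and the difference was -1.53 ± 0.23 (adjusted p = 0.00489). Pdk4, the kinase that switches the same complex off, rose in both organs, 2.49-fold in the heart and 7.16-fold in the kidney (difference -1.52 ± 0.23, adjusted p = 0.00476). Heated kidneys read 1702, 1251, 1069, 1145 and 1152 of Pdk4 against 120 to 240 (median 152), and heated hearts 1784, 1242, 2031, 1666 and 1292 against 319 to 1157 (median 717).

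Gimap7, a GTPase of lymphocytes, read 34.3, 27.4, 23.6, 30.3 and 22.4 in heated hearts against 77.1 to 173 (median 95.3) in control hearts, while all 11 kidneys read at most 31.1. The heart fell 2.96-fold and the difference was -1.45 ± 0.19 (adjusted p = 0.00197). Of 20 GIMAP and lymphocyte genes tested, 4 were called down in the heart and none in the kidney, against 0.283% and 0.257% of all IDs. Gimap7 was the 1 whose difference was called. Gimap6 (-1.06 in the heart, -0.34 in the kidney) and Gimap9 (-1.54 and -0.91) had differences that did not pass (adjusted p = 0.225 and 0.54). Dipk2b followed with a difference of -1.36 ± 0.22 (adjusted p = 0.00749). Nxpe1 and Apol11a (-1.15 and -1.09) lost their call in 10 of 11 fits that each left out a rat.

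In the kidney only, 8 IDs fell, for 7 genes. Of the 8 IDs, 4 were dim in all hearts, where a fall could hardly be seen either. Tmem125, a membrane protein, read 9.22, 12.5, 12.8, 19.2 and 11.4 in heated kidneys against 51.8 to 110 in controls (median 90.4). All hearts read at most 10.2. The kidney fell 3.50-fold (difference 1.81 ± 0.17, adjusted p = 0.000117). Nipal1, a relative of magnesium transporters, read 90.0, 86.0, 76.1, 47.0 and 96.8 against 163 to 428 (median 279) in the kidney (1.72 ± 0.23, adjusted p = 0.00197). Vamp1, a vesicle SNARE, lay in the dim range in heated kidneys and above it in hearts. It read 32.97, 23.6, 29.0, 34.8 and 49.2 in heated kidneys against 94.8 to 247 (median 129), and 367, 414, 359, 350 and 261 in heated hearts against 269 to 494 (median 364), where the groups overlapped (1.54 ± 0.26, adjusted p = 0.0108).

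Mat2a makes S-adenosylmethionine, the methyl donor of the cell, and both of its probe sets were in the class. The leading one read 1173, 1027, 1033, 1001 and 2015 in heated kidneys against 2405 to 3261 (median 2790) in controls, with heated rat 5 above the other heated rats. The heart read 962, 1020.2, 945, 941 and 1351 against 749 to 1299 (median 795). The kidney fell 2.30-fold, the heart response was 0.26 ± 0.16, and the difference was 1.47 ± 0.21 (adjusted p = 0.00349). Hoxb5, Slc31a2 and Sostdc1 had differences from 1.16 to 1.45. The collecting duct markers had a median response of -0.76 in the same kidneys over 4 genes, of which the water channel Aqp3 was called down (-1.04, adjusted p = 0.0394), and their part in the falls of Tmem125, Nipal1, Hoxb5 and Sostdc1 was not tested.

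Opposite directions, with each organ past its own adjusted p, were found for 4 IDs, 3 of them with a symbol. Stc1 is stanniocalcin, a hormone of calcium and phosphate balance, made in the kidney among other organs. Its heart intensity was 215, 194, 204, 232 and 179 in heated rats against 74.6 to 152 (median 87.1), and its kidney intensity 114, 126, 123, 131 and 128 against 205 to 510 (median 271), the 510 being control rat 6. The groups did not overlap in either organ. The heart rose 2.02-fold (adjusted p = 0.00175), the kidney fell 2.16-fold (adjusted p = 0.00122), and the difference was 2.12 ± 0.17 (adjusted p = 1.81e-05). The heated rat with a kidney array only read 244, within the control range. The part of the lower collecting duct markers in the kidney was not tested for Stc1 either.

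Susd2, a sushi-domain membrane protein, went the other way. Heated hearts read 87.2, 49.6, 64.5, 101 and 126 against 115 to 277 (median 154), and heated kidneys 690.2, 706, 546, 798 and 853 against 142 to 592 (median 336). The groups overlapped in each organ by 1 heated rat, rat 5 in the heart and rat 3 in the kidney, and were apart on the heart minus kidney scale. The heart fell 1.89-fold, the kidney rose 2.14-fold, and the difference was -2.01 ± 0.29 (adjusted p = 0.00349). Without the 3 rats with tubule markers in the heart it was -1.79 (adjusted p = 0.0886). Nuak2, an AMPK-related kinase, read 52.5, 66.6, 84.6, 91.0 and 82.3 in heated hearts against 25.9 to 61.8 (median 39.4), and 286, 340, 280, 248 and 279 in heated kidneys against 310 to 500 (median 452). Each organ had 1 heated rat inside the control range. The heart response was 0.70 ± 0.17 and the kidney response -0.57 ± 0.13 (difference 1.27 ± 0.23, adjusted p = 0.0165), and the call was lost without control rat 3, heated rat 3 or heated rat 4.

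**Figure D4:**
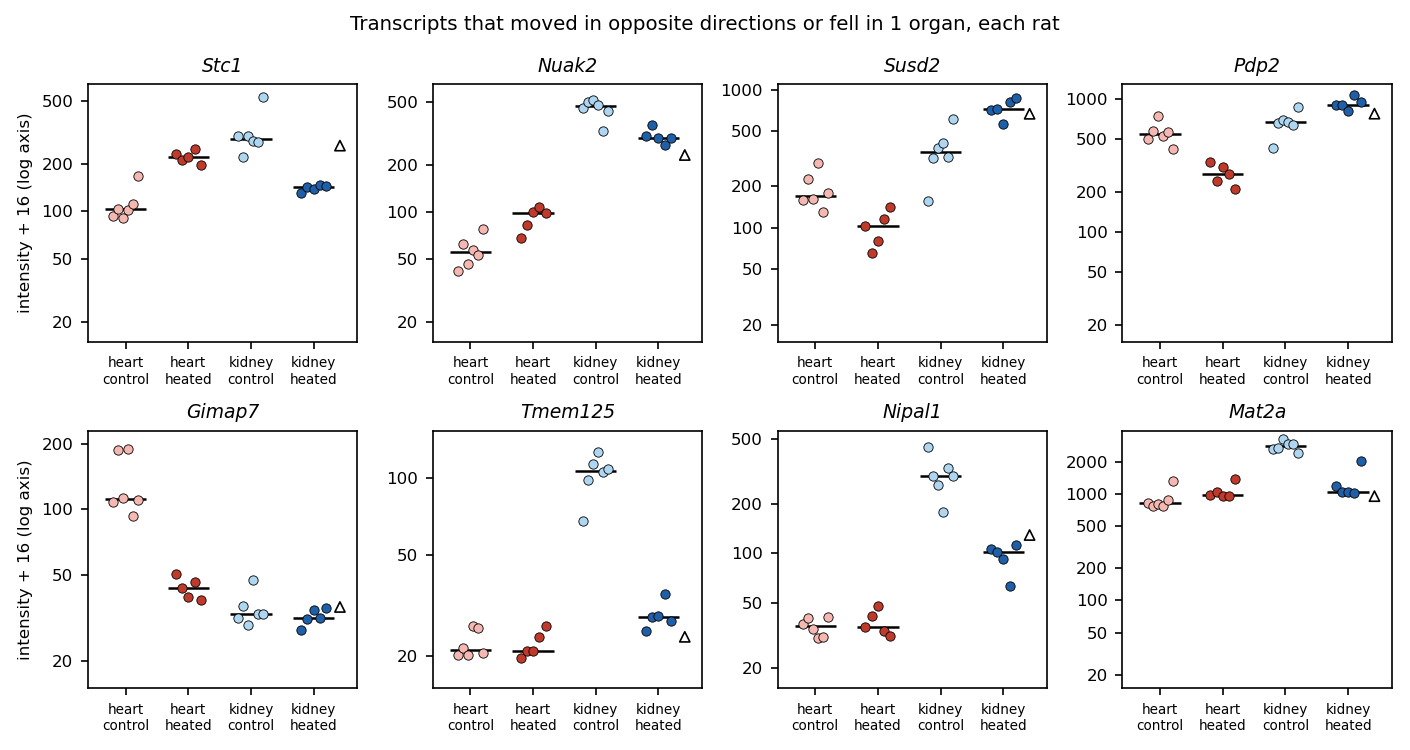
Intensity + 16 on a log axis in each heart (red) and kidney (blue) of 6 control and 5 heated rats for the 3 named genes with opposite directions, 2 that fell in the heart only (Pdp2, Gimap7) and 3 that fell in the kidney only (Tmem125, Nipal1, Mat2a); bars are medians and the open triangle is the heated rat with a kidney array only. For Stc1 the heated hearts at 179 to 232 lie above the control hearts, and the 5 heated kidneys at 114 to 131 lie below the control kidneys while the triangle, at 244, does not.

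A further 18 IDs had a called difference but met none of these patterns, because a response lay between the 1.5-fold and 2-fold limits or missed its own adjusted p. Among the 12 named ones, chosen here after their values were seen, 10 had the kidney higher than the heart. Maob, which oxidises dopamine and other amines, had 0.91 ± 0.17 in the kidney and -0.45 ± 0.18 in the heart. Dusp10, a phosphatase of p38 and JNK, had 0.91 ± 0.18 and -0.39 ± 0.19. Fas, the death receptor, had 0.20 ± 0.11 in the kidney and -0.89 ± 0.16 in the heart (difference -1.09 ± 0.16, adjusted p = 0.00418), and read 15.2, 13.7, 9.85, 18.5 and 31.3 in heated hearts against 37.5 to 56.5 in controls (median 43.0). Abcd4 and Fas were the 2 of these 12 whose call held in all 11 fits that each left out a rat.

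The results can also be read by gene list. Over all IDs tested, 1.21% were called up in the heart and 1.18% in the kidney. The difference was called higher in the heart for 0.252% and in the kidney for 0.206%. These shares stand beside each list that follows. Of 32 immediate early genes tested (AP-1, EGR, NR4A, IER and KLF genes), 17 were called up in the heart and 12 in the kidney. The larger response was called in the heart for 5 and in the kidney for none, or for 5 and 1 with no fold minimum. The median difference was 0.57. The 5 were Fos, Fosb, Ier3, Ier5 and Nr4a2, of which Nr4a2 lost its call in 9 and Fosb in 5 of the 11 fits that each left out a rat. Nr4a1, of the same family, had 3.39 in the heart and 2.07 in the kidney, and its difference of 1.33 ± 0.35 did not pass (adjusted p = 0.112). The list of MAPK phosphatases and EGF receptor ligands and inhibitors (26 genes tested) also holds Gadd45g, which is none of these but acts upstream of p38 and JNK. In it, 2 genes were called higher in the heart (Gadd45g, Hbegf) and 2 higher in the kidney (Dusp6, Dusp10). The median difference was 0.12. Among glucocorticoid-induced genes, of 16 tested, 7 were called up in the heart and 10 in the kidney, Pdk4 was the 1 called difference, and the median difference was -0.53. Nfil3, for example, rose by 1.203 in the heart and by 2.20 in the kidney on the log2 scale (difference -0.99 ± 0.27, adjusted p = 0.124).

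Of 27 sarcomere and calcium handling genes, 2 were called higher in the heart (Xirp1, Lmod2) at a median difference of -0.03, and of 16 cardiac stress genes 1 was (Xirp1) at 0.45. Nppb, the cardiac natriuretic peptide, had 1.47 in the heart and -0.17 in the kidney, and its difference of 1.64 ± 0.38 did not pass (adjusted p = 0.0621). Edn1, the vasoconstrictor endothelin, had 1.54 and 0.09 (1.44 ± 0.36, adjusted p = 0.0864). Some lists had 1 called gene each. It was Has1 in the extracellular matrix list (24 genes), Plaur in the haemostasis list (9 genes) and Otud1 in the ubiquitin and deubiquitinase list (8 genes). It was Atf3 in the integrated stress response list (20 genes) and Pdk4 in the fatty acid oxidation list (19 genes). The deubiquitinase Yod1, called higher in the kidney, was not among the genes of the ubiquitin and deubiquitinase list. The other 18 lists, among them those of the endoplasmic reticulum, cytokines, interferon, osmolytes, renal transport, kidney injury, endothelium and p53, had 0 called differences by limma over 303 tested genes, 74 of them at an unadjusted p under 0.05, against 2087 of the 19437 IDs tested. Within the renal transport list (29 genes), the widest differences were those of Slc14a2, a urea transporter of the inner medulla (1.76 ± 0.97, adjusted p = 0.565), and Slc34a3, a phosphate transporter of the cortex (-1.75 ± 0.48, adjusted p = 0.131).

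The liver and lung of the series place these classes among more organs. In the liver, 5 of the 24 IDs that rose in the heart only were called up, against 1.62% of all IDs, and in the lung 2 of 24, against 1.2%. Otud1 read as a response of 0.05 in the liver and 0.08 in the lung, Gadd45g as -0.47 and -0.49, and Grtp1 as -0.06 and -0.06. Hbegf had 1.44 and 0.84. Of the 16 that rose in the kidney only, 5 were called up and 1 down in the liver (1.07% of all IDs down) and none in the lung. Slc16a1, Vpreb3 and Slc47a2 had responses of -0.01, -0.05 and 0.15 in the liver and -0.04, 0.09 and 0.02 in the lung. Yod1, with 2.01 in the liver, and Maf, with -1.41, were called in opposite directions there. Among the falls, Pdp2 was called down in the liver and Gimap7 in the lung, where 0.434% of all IDs were, and Vamp1 had -1.67 in the liver and -1.21 in the lung, both called down, beside -1.60 in the kidney and -0.06 in the heart. Of the 10 IDs with the larger rise in the heart, 7 were called up in the liver and 8 in the lung.

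**Figure D5:**
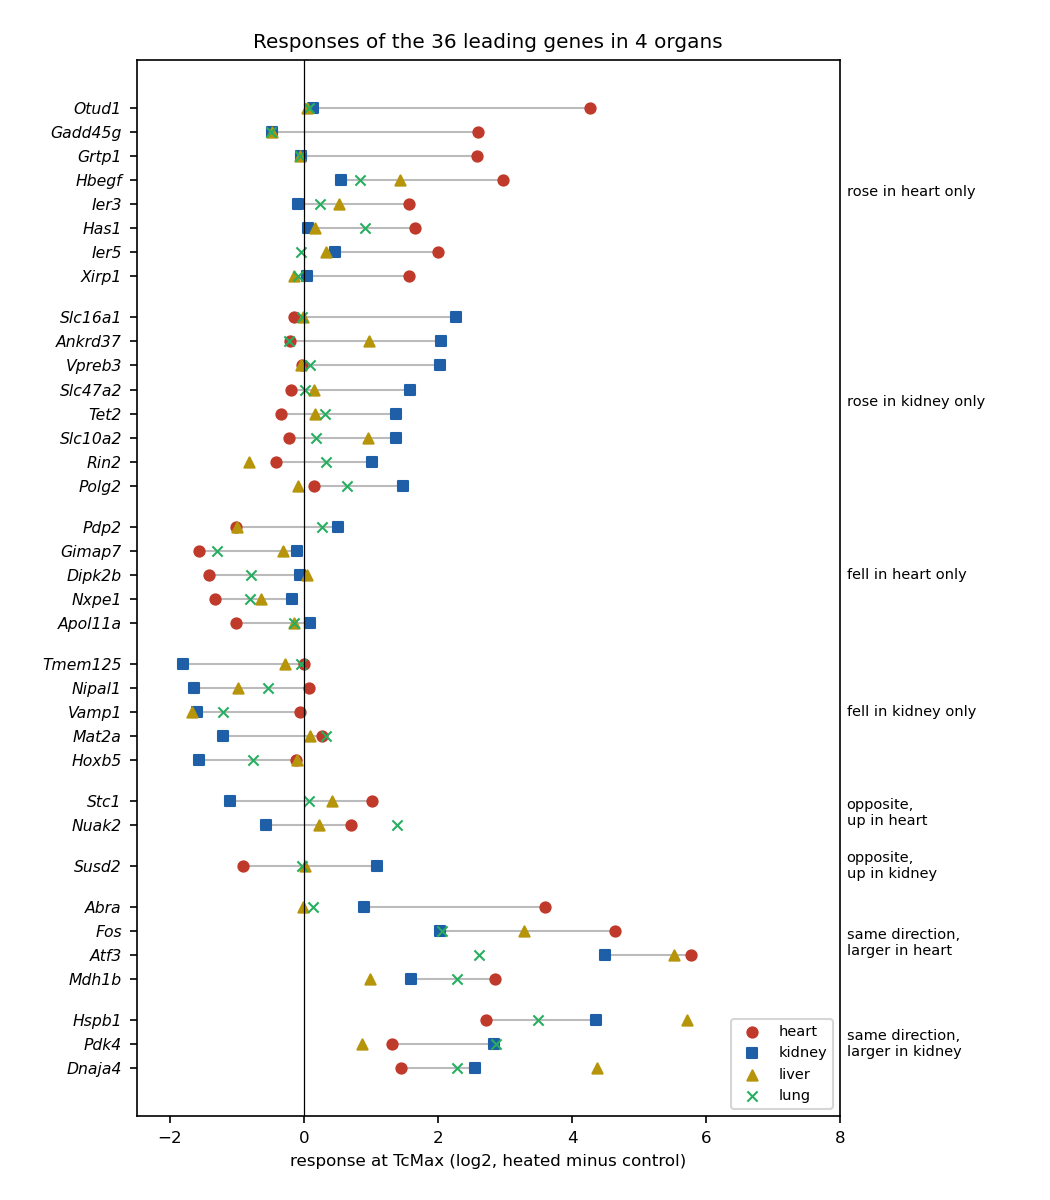
Response at TcMax in log2 units (heated minus control) in heart, kidney, liver and lung for the 36 leading genes, grouped by class, with a grey line joining heart and kidney. Otud1 is at 4.27 in the heart and 0.13, 0.05 and 0.08 in kidney, liver and lung, while Vamp1 is at -0.06 in the heart and below -1 in the other organs.

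At 24 and 48 h after heating, none of the 58 IDs that moved in 1 organ only or in opposite directions was called in the heart or the kidney at either time. By limma, the fits called 10 IDs up (0.0514%) and 6 down (0.0309%) in the heart at 24 h and 0 in the heart at 48 h and in the kidney at either time, with 2190, 3213, 995 and 739 IDs at an unadjusted p under 0.05 in the heart at 24 and 48 h and the kidney at 24 and 48 h. The heated rats at 48 h were fitted as 1 group. The paper reports cardiac injury in some of them, with heart expression unlike that of the controls and the other heated rats. Rats with and without injury were not fitted apart here, so the absence of calls does not show an unchanged heart.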

How the data were processed

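Affymetrix Rat Gene 1.1 ST arrays held RNA of rat heart, kidney, liver and lung. The deposited values are linear intensities that the authors made for each organ apart with the iterPLIER procedure in Affymetrix Expression Console 1.1, and they do not include the offset of 16. Intensities were taken as log2(intensity + 16), as in the study's methods. IDs with a standard deviation above the organ's median in heart or kidney were tested (19437 of 29214). limma 3.58.1 in R 4.3.3 (lmFit, eBayes) was fitted to each rat's heart minus kidney difference, heated minus control, with Benjamini-Hochberg adjustment over all IDs tested, and was checked on simulated data. The study's methods state a two-way ANOVA for each organ, which does not compare organs. Separate rats are the replicates, and 11 arrays an organ limit the precision. Symbols came from the platform annotation (18644 IDs with 1 symbol, 962 with several, 9608 with none), 18460 of them matched to RefSeq. The 36 leading genes were the up to 8, 5, 4 or 3 IDs of each class with the largest differences among those whose rats did not overlap. Up to 4 members of each of 31 gene lists, called or not, were picked apart from these. Of the list genes, 531 were tested. The members and lists were chosen with earlier results of these data known. Promoters came from RefSeq (GRCr8). Figures were drawn with matplotlib 3.10.9.

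A rat's heart and kidney deviations from their group means correlated at 0.014 to 0.310 (median 0.132), against a median of -0.022 between different rats, and 2 of 11 hearts correlated best with their own kidney. The pairing comes from the animal number in the labels.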

Additional observations from a re-analysis of the deposited data

Results flagged for a closer look

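The 36 leading genes had heart and kidney responses that differed by the test of the difference itself. On the log2 scale, heart response minus kidney response, the positive values were Otud1 4.15, Gadd45g 3.07, Abra 2.69, Grtp1 2.62, Fos 2.60, Hbegf 2.41, Stc1 2.12, Tmem125 1.81, Nipal1 1.72, Ier3 1.65, Has1 1.60, Ier5 1.55, Vamp1 1.54, Xirp1 1.53, Mat2a 1.47, Hoxb5 1.45, Atf3 1.28, Nuak2 1.27 and Mdh1b 1.253. The negative values were Slc16a1 -2.42, Ankrd37 -2.24, Vpreb3 -2.06, Susd2 -2.01, Slc47a2 -1.77, Tet2 -1.72, Hspb1 -1.64, Slc10a2 -1.60, Pdp2 -1.53, Pdk4 -1.52, Gimap7 -1.45, Rin2 -1.43, Dipk2b -1.36, Polg2 -1.32, Nxpe1 -1.15, Dnaja4 -1.10 and Apol11a -1.095. Leaving out each of the 11 rats in turn, 33 of the 36 kept their call, and the other 3 were Nxpe1, Apol11a and Nuak2.

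Of 72 groups of rats examined for a rat far from the others of its group, 3 had one, and chance alone gives about 1 in 20. The heart minus kidney value of control rat 6 was -1.11 for Ankrd37, against -0.59 to -0.41 in the other controls. The same rat stood at -0.88 for Mat2a, against -2.04 to -1.69. Heated rat 2 stood at -3.46 for Susd2, against -2.80 to -2.62 in the other heated rats.

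In the heated rat with a kidney array only, which the paired fits did not use, 14 of the 16 IDs that rose in the kidney only stood above all 6 control kidneys. Those are the control kidneys that also chose the class, so the count is no independent support.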

How the results depend on the processing

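The 36 leading genes kept their direction under all alternatives, and no called difference reversed. The named genes pool the 76 called IDs with a symbol and uncalled members of the gene lists. Over all their alternatives, 3988 results kept their side of the threshold, 36 passed it newly and 429 fell short of it. Only a called ID can fall short, so the 429 all belong to the 76. A change of direction in IDs not called was not counted. The counts of IDs moved more. The main counts were 49 higher in the heart and 40 higher in the kidney, 235 up and 55 down in the heart, 230 up and 50 down in the kidney, 24 and 6 that rose and fell in the heart only, 16 and 8 in the kidney only, 4 opposite and 13 in the same direction. The cause of the moves was not tested, except that some settings test fewer IDs or fewer rats.

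With all IDs tested, 3 fell in the heart only, with a variance trend 2, and with quantile normalization 10. With IDs above the median spread in both organs, 31 were higher in the heart and 22 in the kidney, 14 rose and 2 fell in the heart only, and 7 rose and 4 fell in the kidney only. With IDs above the median level in both organs these were 27 and 22, 9 and 0, and 9 and 5, with 24 down in the heart and 30 down in the kidney. With no fold minimum, 471 were up and 308 down in the heart, 948 up and 994 down in the kidney, 13 fell in the heart only, and 31 rose and 17 fell in the kidney only. With ordinary variances, 20 were higher in the heart and 12 in the kidney, 10 rose and 1 fell in the heart only, 7 rose and 4 fell in the kidney only, 1 was opposite and 4 moved in the same direction. Median centring gave 32 down in the kidney. An offset of 1 gave 31 higher in the heart and 24 in the kidney, 113 down in the heart, 348 up and 134 down in the kidney, 9 and 5 that rose and fell in the kidney only, 1 opposite and 4 in the same direction.

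Without pairing, in a fit of 23 arrays with no replicate block, 10 fell in the heart only and 109 were called in all, 78 of them among the 89. The rat as a random block gave 63 higher in the kidney, 83 down in the kidney, and 12 and 13 that fell in the heart and kidney only. A replicate block by the heart's replicate number gave 61 higher in the kidney and 37 that rose in the kidney only. The prefix of the animal number as a block gave 69 higher in the kidney, 11 that fell in the heart only and 29 that rose in the kidney only.

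In alternatives chosen after seeing the data, without the 3 rats with tubule markers in the heart, 19 were higher in the heart and 11 in the kidney, 31 were down in the heart, 10 rose and 1 fell in the heart only, 8 rose and 2 fell in the kidney only, 1 was opposite and 3 moved in the same direction. Without the 3 rats with adipocyte or smooth muscle markers in the heart, these were 22 and 14, 26 down in the kidney, 12 and 2, 8 and 5, and 5 in the same direction.

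Leaving out 1 rat at a time gave 34 (without control rat 3) to 75 (without control rat 4) higher in the heart and 22 (without heated rat 2) to 78 (without control rat 6) higher in the kidney. It gave 207 to 257 up and 37 to 73 down in the heart, and 209 to 275 up and 27 (without control rat 1) to 153 (without control rat 4) down in the kidney. It gave 17 to 34 that rose and 2 (without heated rat 2) to 11 (without control rat 6) that fell in the heart only, 9 (without control rat 2) to 41 (without control rat 6) that rose and 6 to 31 (without control rat 4) that fell in the kidney only, 1 to 4 opposite and 8 to 17 in the same direction. Of the 76 named IDs, 46 kept their call throughout. Signal limits the dim IDs: 10 of the 24 that rose in the heart only were below the kidney's median on all kidney arrays.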
